A study of Mus musculus with 2 samples.

Results

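Tubg1, Ces5a, Pik3r5, Sh3pxd2b and AC131780.1 are 5 genes that each had a transcript among the 5 lowest ratios of reads in the 3xFN-Tel-TAL library to reads in the 3xFNLDD library. The 5 lowest were taken among the 2473 transcripts with 200 or more reads when both libraries are summed. All transcripts listed under these symbols were then taken, which gave 11 of the 48876 listed transcripts. Because the ratio itself chose these genes, their low values are a description and not a finding. Not all of the transcripts that carried the reads are annotated as mRNAs. Of the 4 low transcripts that could be placed, 2 were annotated as protein-coding, 1 as a retained intron and 1 as a processed transcript without a reading frame.

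RNA was recovered by enChIP, a chromatin immunoprecipitation through an engineered DNA-binding protein, from Ba/F3, a mouse hematopoietic cell line that grows on interleukin 3 and whose strain the labels give as C3H. One line stably expressed 3xFN-Tel-TAL, a FLAG-tagged TAL protein with a nuclear localization signal that binds telomeric repeats. The other expressed 3xFNLDD, a FLAG-tagged LexA protein that served as the negative control. Both were crosslinked with formaldehyde, sonicated and immunoprecipitated with the anti-FLAG M2 antibody, and the labels give 60 ng of total RNA as the input of each kit reaction. The study's methods give unequal amounts of purified RNA from both lines, less of it from the Tel-TAL line. There was 1 library per group, so no difference below has a replicate check, no test was possible, and intervals cover counting error only. Whether either line is a single clone is not given in the sources used here.

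The products of the named genes work in different places. Gamma-tubulin, encoded by Tubg1, sits in a ring complex at the centrosome and nucleates microtubules. Pik3r5 encodes p101, a regulatory subunit that couples the PI3K gamma catalytic subunit to G protein beta-gamma dimers in blood cells. Sh3pxd2b encodes TKS4, a scaffold with a PX domain and several SH3 domains that is needed for podosomes. Ces5a encodes a secreted carboxylesterase known from kidney and epididymis. AC131780.1 is a clone-based name with no description in the files. A retained intron is an intron kept in the RNA, and introns often hold short tandem repeats such as stretches of CA, or pieces of interspersed repeats that are spread over the genome.

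Sequencing depth was 7206183 reads in the control library and 9774844 in the Tel-TAL library. Levels are given as RPM, the reads of a transcript scaled to the library total. A level of 0.416 RPM stands for 3 reads with 3xFNLDD, and 0.307 RPM with 3xFN-Tel-TAL. The 95% confidence intervals (CI) are exact binomial ones. The median log2 ratio (3xFN-Tel-TAL over 3xFNLDD) of the 2473 transcripts was 0.37. TMM scaling in edgeR, a trimmed mean over transcripts, moved each log2 ratio by -0.37. In such bulk samples the capture of an RNA and its amount in the cells cannot be told apart. The same holds for fewer cells of a type and less RNA per cell. Of 11 markers of the line, 9 had a row, with 1583 and 2527 reads in sum. The interleukin 3 receptor beta chains Csf2rb (583 and 1052 reads) and Csf2rb2 (751 and 849 reads) were well covered, whereas the B-lineage genes Cd79b, Vpreb1 and Igll1 had 4 reads or fewer in each library. Of 8 markers of other cell types, 6 had a row, with 94 and 115 reads in sum. Defb42 had 58 and 106 reads and the other 5 had at most 14 reads in 3xFNLDD and at most 5 in 3xFN-Tel-TAL.

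The sequences below are stretches of 3 of the low transcripts that also occur elsewhere in the genome. They are shown because the other transcripts under the same symbols do not hold them. They are given 5′ to 3′ on the forward strand of NCBIM37. The submitters' processing notes name GRCm38 and mm10, so transcripts were matched by Ensembl ID and no position was converted. In the Pik3r5 and Sh3pxd2b stretches, capitals mark runs of 6 or more letters that alternate A and C or G and T. In the Ces5a stretch, capitals mark the 30-base word with the most genome positions, 9879. The Sh3pxd2b stretch is chr11:32289133-32289214, in an intron of the coding transcript. The Pik3r5 stretch is chr11:68310287-68310316, 30 bases of a longer repeat in the 3′ UTR. The Ces5a stretch is chr8:96008588-96008867, the first exon of the transcript, annotated as coding.
Sh3pxd2b ENSMUST00000138771: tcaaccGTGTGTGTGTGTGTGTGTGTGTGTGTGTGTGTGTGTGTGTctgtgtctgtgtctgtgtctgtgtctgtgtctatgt
Pik3r5 ENSMUST00000021283: ACACACACACACACACACACACACACACAC
Ces5a ENSMUST00000080391: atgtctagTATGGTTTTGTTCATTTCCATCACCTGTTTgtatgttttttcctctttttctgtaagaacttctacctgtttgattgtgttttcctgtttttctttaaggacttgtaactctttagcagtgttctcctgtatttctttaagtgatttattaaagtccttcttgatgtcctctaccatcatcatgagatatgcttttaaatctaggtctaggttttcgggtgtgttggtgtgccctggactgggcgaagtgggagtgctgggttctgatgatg

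Reads of Tubg1 lay mostly on a short transcript that ends in an intron of the coding one. ENSMUST00000137844 (852 nt, 3 exons, a processed transcript, chr11:100985814-100987142, forward strand) had 189 reads with 3xFNLDD and 56 with 3xFN-Tel-TAL. These counts are 26.2 RPM and 5.73 RPM, a log2 ratio of -2.19 (95% CI -2.65 to -1.76). This was the lowest ratio of the 2473 transcripts and 4.58-fold lower with 3xFN-Tel-TAL. The coding transcript ENSMUST00000043680 (1802 nt, 11 exons) had 14 and 21 reads, which put its log2 ratio at 0.15 (95% CI -0.90 to 1.23). Of the short transcript, 388 nt are shared with the coding one and 464 nt are not. The short transcript was chosen for its ratio, so the gap between both is a description. With TMM scaling the coding transcript was at -0.22, so its direction depends on the scaling. Per length, the short transcript was at 30.8 RPM per kb in 3xFNLDD and the coding transcript at 1.08. The gene sum, 203 and 77 reads, had a log2 ratio of -1.84 (95% CI -2.24 to -1.45). The short transcript held 93.1% of these reads with 3xFNLDD and 72.7% with 3xFN-Tel-TAL.

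The reads listed under Ces5a came from a row that the annotation places apart from the gene of the main coding transcript. ENSMUST00000080391 (735 nt, 4 exons, chr8:96008588-96015891, forward strand, gene ENSMUSG00000058346) had 153 reads with 3xFNLDD and 56 with 3xFN-Tel-TAL, or 21.2 and 5.73 RPM. Its log2 ratio was -1.89 (95% CI -2.36 to -1.44). ENSMUST00000077816 (1284 nt, 11 exons, gene ENSMUSG00000058019) lies 21949 nt away on the reverse strand and had 2 and 0 reads, under the floor of 3 reads in both libraries. The symbol thus joins 2 annotated genes, and its sum of 155 and 56 reads (log2 ratio -1.91, 95% CI -2.38 to -1.46) came almost wholly from the forward-strand gene.

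In Pik3r5 the reads lay on the long coding transcript. ENSMUST00000021283 (4370 nt, 19 exons, chr11:68245623-68311351, forward strand) had 283 reads with 3xFNLDD and 114 with 3xFN-Tel-TAL. The levels were 39.3 and 11.7 RPM, a log2 ratio of -1.75 (95% CI -2.08 to -1.43). The processed transcript ENSMUST00000141716 had 0 and 4 reads, which bounds its log2 ratio at -1.04 from below. It shares 103 nt with the coding transcript, and its 4 reads are too few to set it against the other. The gene sum of 283 and 118 reads put the log2 ratio at -1.70 (95% CI -2.02 to -1.39).

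In Sh3pxd2b most reads lay on a transcript annotated as a retained intron. ENSMUST00000138771 (2659 nt, 4 exons, a retained intron, chr11:32247840-32290300, forward strand) had 156 reads with 3xFNLDD and 63 with 3xFN-Tel-TAL, or 21.6 and 6.45 RPM. Its log2 ratio was -1.75 (95% CI -2.19 to -1.32). Only 363 nt of it belong to exons of the coding transcript and 2296 nt do not. The coding transcript ENSMUST00000038753 (7413 nt, 13 exons) had 12 reads with 3xFNLDD and 0 with 3xFN-Tel-TAL. Set against a floor of 3 reads in that library, it was 5.43-fold lower. The 95% interval bounds its log2 ratio at -1.91 from above. Here, unlike in Tubg1, both transcripts were lower with 3xFN-Tel-TAL. The gene sum of 168 and 63 reads put the log2 ratio at -1.85 (95% CI -2.30 to -1.43).

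AC131780.1 was far more deeply read than the other genes, and most of its reads lay on the 2 transcripts that were not among the 5 lowest. ENSMUST00000181957 had 337 reads with 3xFNLDD and 138 with 3xFN-Tel-TAL, for a log2 ratio of -1.73 (95% CI -2.02 to -1.44). ENSMUST00000181242 had 3426 and 2019 reads, which put its log2 ratio at -1.20 (95% CI -1.28 to -1.12), and ENSMUST00000181572 had 2168 and 1262 reads, which put its log2 ratio at -1.22 (95% CI -1.32 to -1.12). The last 2 did not differ beyond counting error. The first, chosen for its ratio, held 5.68% of the gene's reads in 3xFNLDD. The sum of 5931 and 3419 reads (823 and 349.8 RPM) had a log2 ratio of -1.23 (95% CI -1.30 to -1.17). Its position and sequence were not analysed here, because the annotation used does not hold these transcripts.

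**Figure D1:**
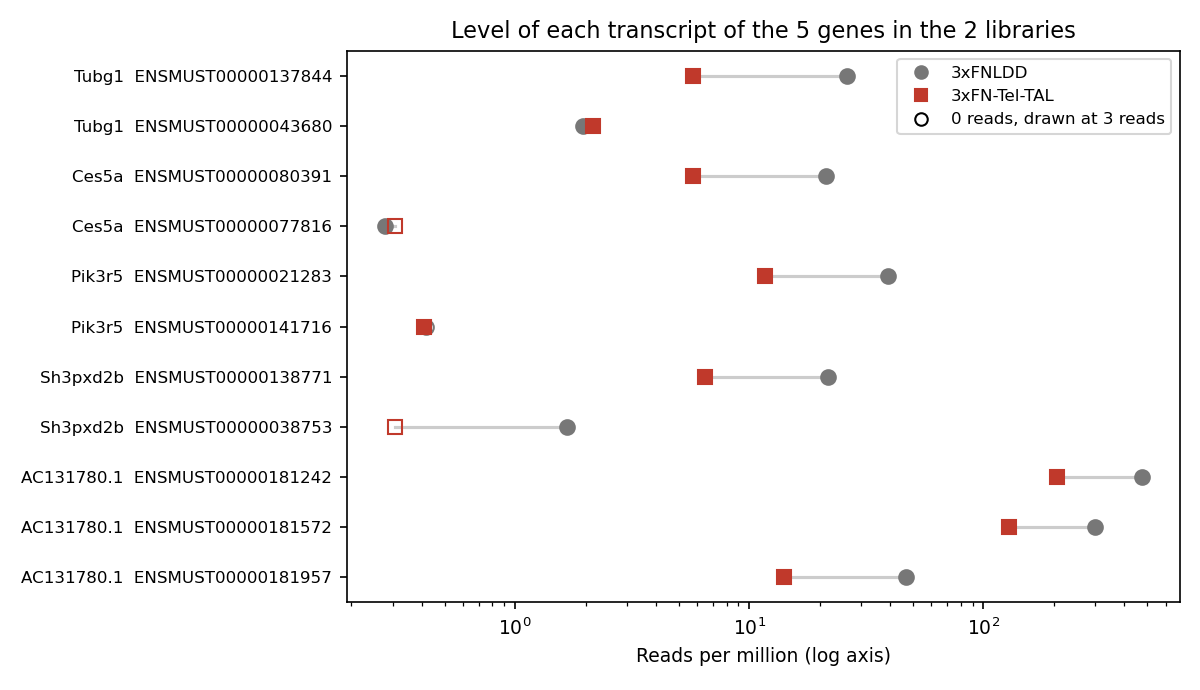
Level of each of the 11 transcripts in the 3xFNLDD library (grey circles) and the 3xFN-Tel-TAL library (red squares), in RPM on a log axis; open symbols stand for 0 reads and are drawn at the level of 3 reads. The transcript of each gene with at least 200 reads sits lower with 3xFN-Tel-TAL, whereas the Tubg1 coding transcript is at 1.94 and 2.15 RPM.

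Of the 11 transcripts, 7 reached 200 reads and all 7 were below 1/1.4-fold, a count that the choice of genes largely fixes. Over all 2473 transcripts at this depth the share was 7.72%, and 39.6% were above 1.4-fold. With TMM scaling the shares were 16.5% and 17.8%. The other 4 transcripts had 35 reads or fewer, and 2 of them were at or near the floor. The cut between the fifth and the sixth rank was narrow. AC131780.1 closed the list at -1.73, and the next ones were Gm10576 (-1.72), AC112688.1 (-1.70), Rdh9 (-1.69), Gm16223 (-1.69) and A430033K04Rik (-1.67). By construction the first 3 of these are the genes nearest in ratio to each of the 5. The interval of Gm10576, -1.99 to -1.46, covers the values of Pik3r5, Sh3pxd2b, Ces5a and AC131780.1 and not that of Tubg1. The order also depends on the depth asked for, since with at least 100 reads the 5 genes ranked 2, 6, 7, 8 and 9 of 5655 transcripts, and with at least 50 reads they ranked between 9 and 27 of 9774.

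**Figure D2:**
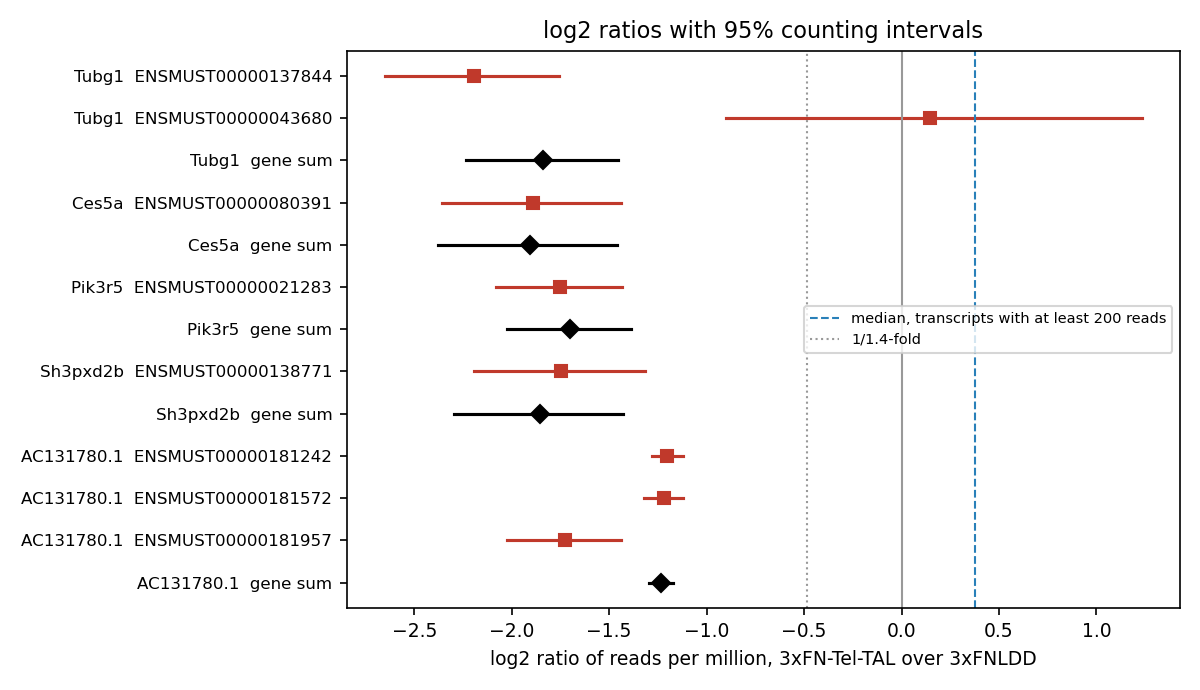
Log2 ratio of RPM, 3xFN-Tel-TAL over 3xFNLDD, for transcripts with reads in both libraries (red squares) and for gene sums (black diamonds), with 95% Clopper-Pearson counting intervals as lines. The dashed line marks the median of 0.37 over transcripts with at least 200 reads, and the Tubg1 coding transcript is the only one whose interval reaches it.

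All 4 low transcripts with a known sequence held some repeated sequence, which is common among the annotated transcripts. A base was counted as repeated if a 30-base word over it occurred at 10 or more positions of the genome on either strand. By this measure 38.4% of the bases of the low Ces5a transcript were repeated, 20.5% of the low Tubg1 transcript, 3.08% of the low Sh3pxd2b transcript and 2.95% of the Pik3r5 coding transcript. Over the 2309 annotated transcripts with at least 200 reads the median was 2.60%, and 764 had no repeated base. The Pik3r5 and Sh3pxd2b transcripts were thus near the median, and the Tubg1 and Ces5a transcripts above it. The AC131780.1 transcripts could not be measured. In Tubg1 the repeated bases lay in 3 blocks towards the end of the transcript, in an intron of the coding transcript. In Sh3pxd2b they were the 82 nt of the printed GT repeat, and in Pik3r5 a CA-rich stretch of 129 nt that holds an unbroken run of 50 nt. In Ces5a they were the first 282 nt. The Tubg1 coding transcript, the reverse-strand Ces5a transcript and the short Pik3r5 transcript had none, and the Sh3pxd2b coding transcript had 0.526%.

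**Figure D3:**
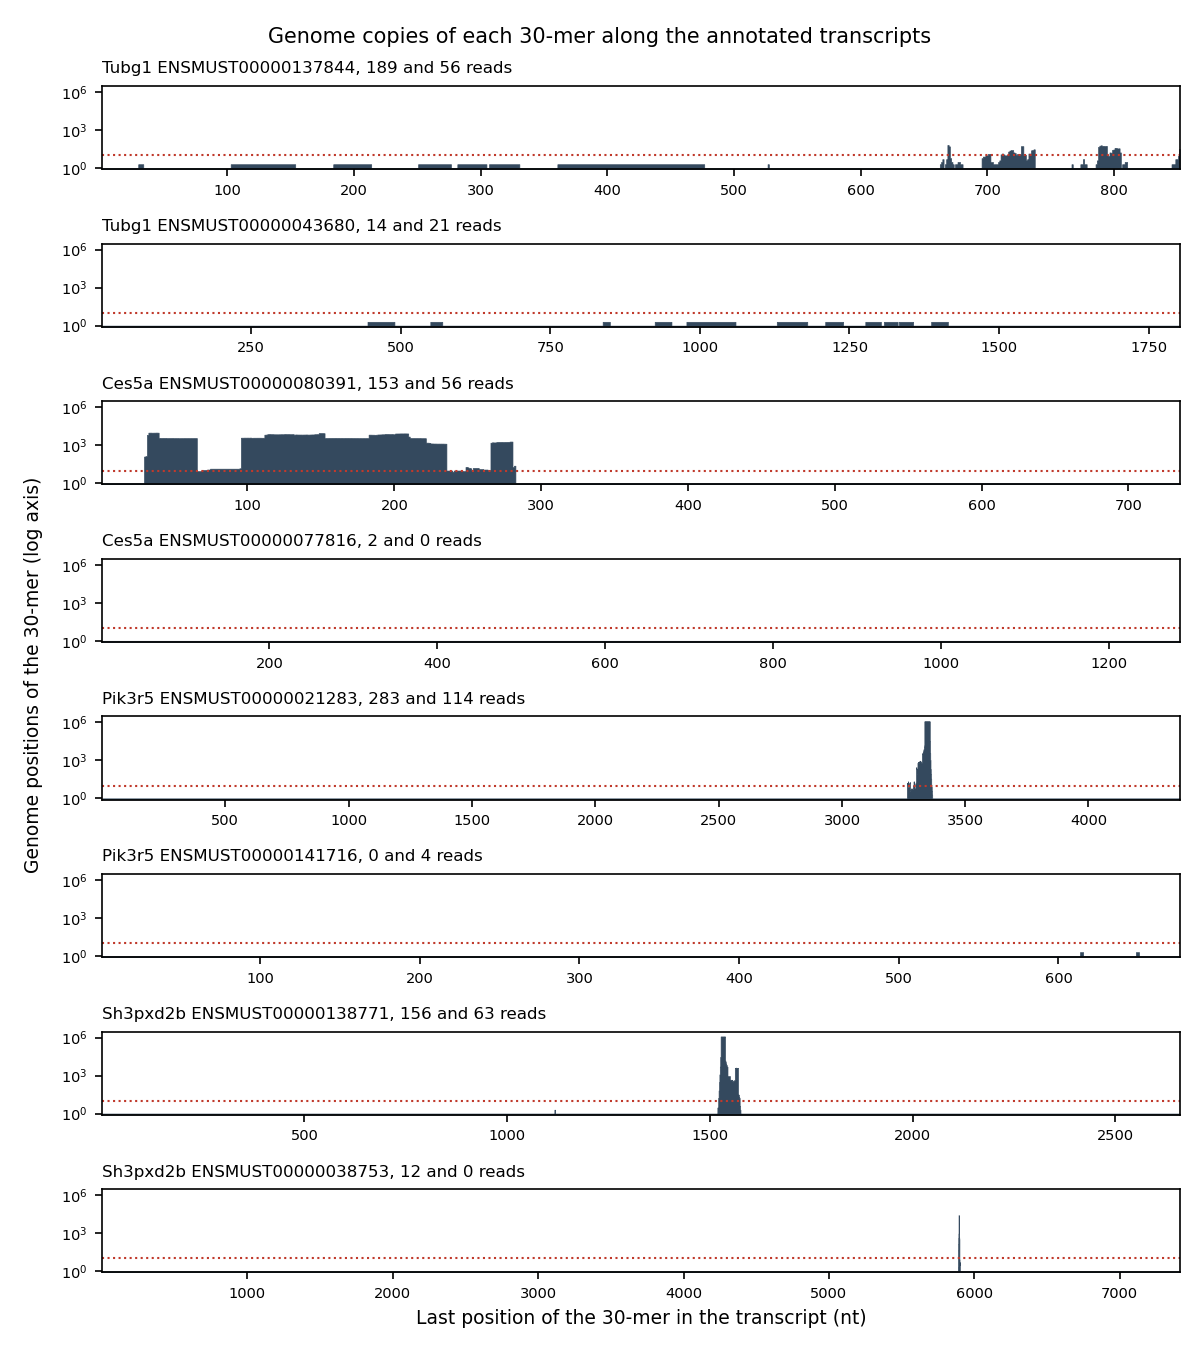
Number of genome positions of each 30-base word (log axis) along the 8 annotated transcripts, plotted at the last base of the word; the dotted line marks 10 positions, and panel titles give the reads of each library, 3xFNLDD first. Words above the line lie towards the end of the low Tubg1 transcript, over the first 282 nt of the low Ces5a transcript, and in a single block of the Pik3r5 and Sh3pxd2b transcripts.

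The low Ces5a transcript aligned to other RNAs, and most of those with at least 200 reads had low ratios. A BLAST search of the whole transcript against 45885 annotated transcripts found 33 with similar sequence, of which 23 had at least 200 reads. Where the alignments lie in the transcript was not analysed. Their median log2 ratio was -0.87, and 15 of the 23, or 65.2%, were below 1/1.4-fold, beside 7.19% of all 2309 annotated transcripts at that depth. With TMM scaling their median was -1.24. The most identical was Caps2 (ENSMUST00000132994), 98.9% over 278 nt, with 412 and 216 reads and a log2 ratio of -1.37 (95% CI -1.62 to -1.13). The log2 ratios of the 23 ran from -1.62 for 4933427J07Rik, 89.2% identical over 277 nt, to 0.063 for the schlafen gene Slfn8, 85.3% identical over 102 nt. Next to Caps2 in identity were Gm11924, 92.8% over 208 nt, at -0.72, and Gm4117, 92.5% over 53 nt, at -0.23. Reads from a closely similar stretch may fit several rows, and how the authors assigned them is not given in the sources used here. The part of shared reads in the Ces5a value was not tested.

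The other 3 low transcripts with a known sequence aligned to more RNAs. Of the 157 transcripts with at least 200 reads that aligned to the Pik3r5 transcript, 23, or 14.6%, were below 1/1.4-fold, and their median log2 ratio was 0.33. The figures were 21 of 142 (14.8%, median 0.34) for the Sh3pxd2b transcript and 18 of 61 (29.5%, median 0.29) for the Tubg1 transcript. These sets may share transcripts, since all 3 queries hold CA or GT repeats. Other members, chosen for low ratios, were not left out of these sets. Over all 2309 annotated transcripts at that depth, 7.19% were below 1/1.4-fold. A run of at least 10 tandem units of AC, CA, GT or TG, which covers both strands, was found in 10.7% of the 2309 annotated transcripts, among them those of Pik3r5 and Sh3pxd2b. Without these members, 26 of 244 transcripts with such a run (10.7%) were below 1/1.4-fold, compared with 138 of 2063 transcripts without it (6.69%). The median log2 ratios of these groups were 0.36 and 0.38. Their median shares of repeated bases, as defined above, were 4.24% and 2.14%, and the part of that difference was not tested. A tandem pair of the telomeric unit TTAGGG, or of CCCTAA on the other strand, was present in 2 of the 2309 transcripts and in none of these genes.

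Across all annotated transcripts with at least 200 reads, low ratios were more frequent where more than 2% of the bases were repeated. Of the 1083 transcripts with at most 2% repeated bases, 19 (1.75%) were below 1/1.4-fold. Of the 1222 transcripts above 2%, leaving out the 4 members, 143 (11.7%) were. Above 2% the share did not rise steadily. Members left out, it was 11.5% above 2 to 10%, 8.61% above 10 to 25% and 17.0% above 25%. The median log2 ratio was 0.56 without repeated bases and 0.044 above 25%, members left out. With TMM scaling these medians were 0.19 and -0.33, and the shares below 1/1.4-fold were 7.85% at or under 2% and 22.2% above it. Spearman's rho between repeated share and log2 ratio over the 2309 transcripts was -0.38, given as a description because all come from the same 2 libraries. It was 0.21 for GC content, 0.073 for length and -0.017 for the longest CA run. Length and GC content moved with the repeated share: the median length was 3925 nt without repeated bases and 1208 nt above 25%, and the median GC content 53.6% and 47.0%. Their part in the relation with the repeated share was not tested.

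**Figure D4:**
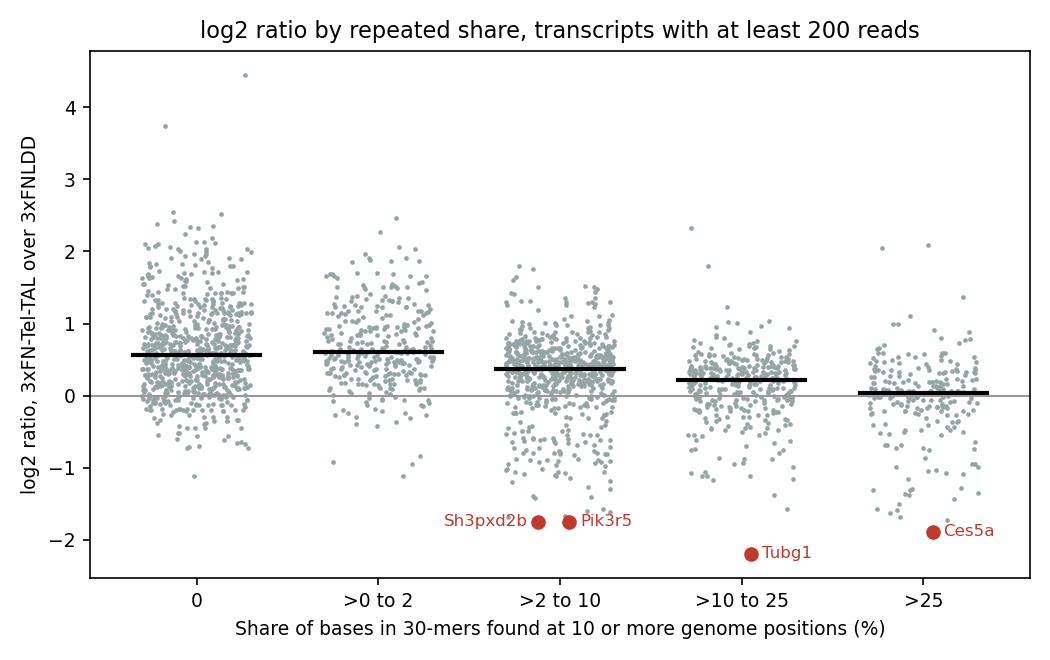
Log2 ratio of each annotated transcript with at least 200 reads (grey points), grouped by the percentage of its bases in 30-base words found at 10 or more genome positions; black lines are medians over all points of a group and red points are the 4 low transcripts with a known sequence. The red points were chosen for low ratios, which places them at the bottom of their groups. The medians go from 0.56 without repeated bases to 0.042 above 25%.

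Most of the other measured genes in the lists around these genes did not have low ratios. The same held for most gene sums over all symbols. Gene sums over all transcripts of a symbol were compared for lists chosen by function, and 11.5% of the 12517 symbols with at least 20 reads were below 1/1.4-fold and 41.1% above 1.4-fold, with a median log2 ratio of 0.37. With TMM scaling the shares were 22.4% and 20.4%. Of the other genes of the gamma-tubulin ring complex, its anchors and augmin, 16 had at least 20 reads, of which 1 was lower, 7 were higher and the median was 0.31. With TMM scaling 3 were lower and 1 was higher, so the balance of this list depends on the scaling. Tubgcp3 and Tubgcp6, subunits of the ring, were at 0.62 and 0.53, and Haus6 of augmin at 1.02. The most deeply read, Haus8 with 275 and 319 reads, was at -0.23 (95% CI -0.46 to 0.012). Pcnt, with 193 and 218 reads, was at -0.26 (95% CI -0.55 to 0.023). The lower one was Tubgcp5, with 24 and 22 reads, at -0.57 (95% CI -1.47 to 0.33). Of 9 alpha and beta tubulins and their rarer relatives, 6 were higher and 1 lower, and with TMM scaling 5 were higher and 2 lower. Tuba1b, with 112 and 387 reads, was at 1.35 and Tubb5, with 209 and 529 reads, at 0.90, whereas Tubb6, with 16 and 12 reads, was at -0.85 (95% CI -2.07 to 0.32).

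Tubg2 is the near copy of Tubg1 and lies 29488 nt after it on chromosome 11. Its transcript is 93.1% identical to the Tubg1 coding transcript over 1368 nt, so reads could have been split between them. It had 14 reads with 3xFNLDD and 0 with 3xFN-Tel-TAL. Set against a floor of 3 reads in the latter library, Tubg2 was 6.33-fold lower. The counting interval bounds its log2 ratio at -2.17 from above. The coding transcript of Tubg1 had 14 and 21 reads. On the other side, 45 nt before Tubg1, Fam134c had 66 and 134 reads, which put its log2 ratio at 0.58.

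Pik3r5 encodes a regulatory subunit of PI3K gamma, and values of other class I PI3K genes and near effectors follow. The catalytic subunit Pik3cg, with 48 and 130 reads, was at 0.998 (95% CI 0.51 to 1.51). Pik3r6, the other regulatory subunit of PI3K gamma and the next gene on the chromosome at a distance of 5170 nt, had 19 and 20 reads, which put its log2 ratio at -0.37 (95% CI -1.35 to 0.62). Of the 14 other class I PI3K genes and near effectors, 8 were higher and 0 were lower. Among the higher ones were Pdpk1 (1.17) and Akt2 (1.08), kinases downstream of PI3K, and Pik3cd, the most deeply read with 302 and 596 reads, was at 0.54. With TMM scaling 4 were higher and 2 lower.

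The list around Sh3pxd2b held both low and high ratios. Its paralog Sh3pxd2a, which encodes the podosome scaffold TKS5, had 19 and 4 reads, which put its log2 ratio at -2.69 (95% CI -4.70 to -1.10). The metalloprotease gene Adam19, with 17 and 8 reads, was at -1.53 (95% CI -2.95 to -0.24). These were the 2 lower genes of 14, and both rest on few reads. With TMM scaling 2 were lower and 5 higher. Of the 7 higher genes, Grb2, an adaptor with SH3 domains, had 46 and 302 reads and a log2 ratio of 2.28 (95% CI 1.82 to 2.76). The actin-nucleating subunits Actr2 and Arpc2 were at 1.35 and 0.98, and Wipf1, a partner of the WASP protein, at 0.998. Cortactin, Cttn, with 13 and 3 reads, and Src, with 6 and 1 reads, were below the minimum of 20 reads.

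Carboxylesterases were hardly covered. Of the 20 genes in the list, 16 had a row and 13 of these had fewer than 20 reads. With at least 5 reads in 1 library and 0 in the other there were Ces1b (6 reads) and Ces2h (5 reads), both read with 3xFNLDD, and Ces1g (9 reads), read with 3xFN-Tel-TAL. Ces2b, with 308 and 475 reads, was at 0.19, and Ces2g, with 103 and 139 reads, was at -0.0074, so the 2 other esterase genes with enough reads were not low. Over all transcripts, 926 had at least 5 reads with 3xFNLDD and 0 with 3xFN-Tel-TAL, and 1386 the reverse.

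**Figure D5:**
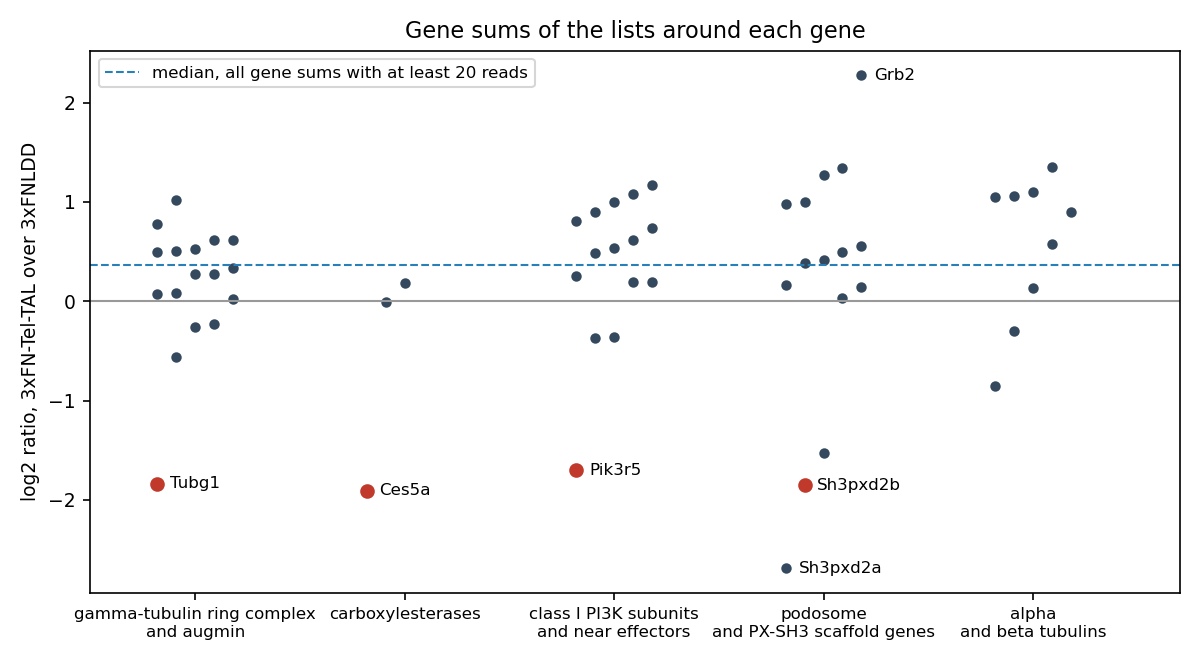
Log2 ratio of gene sums, 3xFN-Tel-TAL over 3xFNLDD, for genes of 5 functional lists with at least 20 reads (points), with the genes chosen for a low ratio in red; the dashed line is the median of 0.37 over all 12517 such gene sums. Sh3pxd2a, at -2.69, and Grb2, at 2.28, are the lowest and highest points.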

How the data were processed

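The authors deposited a read count per Ensembl transcript for each library, and the same value as RPM, which divides it by the sum over the library. Recomputed RPM values were the same to a relative difference of 1e-06. The submitters' processing notes name cutadapt, GRCm38 and mm10. The aligner, the annotation release, strand and the treatment of reads that fit several transcripts are not given in the sources used here.

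Ratios were taken between shares of the library totals and put on the log2 scale (Python 3.11.15, numpy 2.4.6, scipy 1.17.1, pandas 2.3.3), with exact 95% Clopper-Pearson intervals, which cover counting error only. Gene sums add all transcripts of a symbol, and if the authors counted a read for several transcripts these sums count it more than once. TMM and RLE factors came from edgeR 4.0.16 on transcripts with at least 10 reads. Called means past 1.4-fold, the fold used in the study. Intervals and ratios to library totals were tested on simulated counts that held counting error only. The other scalings were not tested in this way.

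Positions and sequences came from GENCODE M1 on NCBIM37, which holds 45887 of the 48876 transcripts. Similar sequences were sought with BLAST 2.17.0+ (word size 16, E-value 1e-10, no masking). The members and lists were chosen with earlier results of these data known, and the repeat measures after seeing the sequences. Named were all member transcripts, the 5 transcripts just outside the lowest 5, the 3 nearest in ratio, listed genes and chromosomal neighbours. The similar RNAs (the most identical, the lowest and the highest) were picked after their values were seen. Some symbols of the marker lists were not analysed here, and some sequence is not reported here.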

Additional observations from a re-analysis of the deposited data

How the results depend on the processing

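No paired analysis was possible because there was 1 library per group, which also leaves no replicate to omit. Only the Tubg1 gene sum turned in direction. Without its transcript with the most reads it was 0.15 (-1.84 with all). No such value could be given for Ces5a, Pik3r5 and Sh3pxd2b, whose other transcripts had 0 reads in a library. The remaining settings kept all 5 gene sums below 0. TMM, RLE and totals without RNAs above 1% of a library shift all ratios alike by -0.37, -0.37 and -0.32. By TMM and RLE Pik3r5 was at -2.07 and -2.07. AC131780.1 was at -1.60, -1.60 and -1.55.

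Transcripts below 1/1.4-fold numbered 191, and 408 by TMM, 406 by RLE, 352 by totals without the large RNAs, 376 with at least 100 reads, 1829 with at least 20 reads, 6167 with 1 read in each library, 66 at 2-fold and 112 by the 95% bound. Transcripts above 1.4-fold numbered 980, and in the same order 441, 442, 489, 2469, 7275, 12603, 316 and 469. Among transcripts with at most 2% repeated bases, a setting chosen after seeing the data, they numbered 19 and 613. The 4 lower genes of the functional lists became 9 by TMM, 9 by RLE, 9 by totals without the large RNAs, 0 with at least 100 reads per gene and 2 at 2-fold. The 28 higher ones became 15, 15, 16 and, at 2-fold, 10. Transcripts with fewer than 200 reads have wide intervals, and no ratio here separates the capture of an RNA from its amount in the cells.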

Other observations

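The 30 annotated transcripts with the lowest ratios among those with at least 200 reads, inspected after their values were seen, held a median of 26.2% repeated bases. The next 30 held 10.8%, and the 30 highest 0%. Over all 2309 such transcripts the median was 2.60%. The lowest 30 include the 4 members with a known sequence. Several of the lowest were repeated over nearly their whole length. Gm10718 (1847 and 964 reads, log2 ratio -1.38) had 99.1% repeated bases, Gm10719 (324 and 147 reads, -1.58) 97.2% and Gm10721 (147 and 67 reads, -1.57) 93.2%. Gm10576, the transcript just outside the 5 lowest, had 87.9%. Other low transcripts had few repeated bases, such as Mettl21e (3207 and 1433 reads, -1.60) with 2.58% of 3211 nt and Armc9 (268 and 119 reads, -1.61) with 3.96% of 5127 nt, as in Pik3r5 and Sh3pxd2b. Of these 30, 7 had a run of at least 10 CA or GT units, among them Pik3r5 and Sh3pxd2b. Over all 2309 the share with such a run was 10.7%. The share of reads that fell within the repeated bases cannot be read from counts per transcript.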
